A study of Mus musculus with 12 samples.

Results

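Thyroid hormone handling was followed through 7 genes of the 19938 measured in term fetal mouse liver, chosen by name from a list. They were the serum carriers *Serpina7* and *Ttr*, the membrane transporter *Slc16a10*, the deiodinases *Dio1* and *Dio2*, and the nuclear receptors *Thra* and *Thrb*, and 7 of 7 were found on the array with 1 probeset each. Whole livers from 6 *Ppara*-/- and 6 *Ppara*+/+ fetuses at E19.5 were compared, 1 array per liver. The labels give the strain SV129 and the study's methods C57BL/6. All fetuses came from matings of heterozygous parents and were delivered by cesarean section, with no treatment. The null allele was carried by the whole fetus and not by the liver alone. Litters were fewer than livers, so some livers shared a litter and the p-values do not allow for that.

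The thyroid secretes mostly thyroxine, which travels in blood bound to proteins made by the liver. Thyroxine-binding globulin, the product of *Serpina7*, is a serpin that no longer inhibits proteases and carries the hormone instead, next to transthyretin (*Ttr*) and albumin. Transporters admit the hormone to cells, the type 1 and type 2 deiodinases convert thyroxine to the active triiodothyronine (T3), and the type 3 enzyme inactivates both. T3 then acts through the receptors encoded by *Thra* and *Thrb*, which bind DNA as partners of the retinoid X receptors. PPARα, the fatty acid-activated receptor encoded by *Ppara*, uses the same partners, and in both cases the DNA elements are pairs of related half-sites.

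*Serpina7* was the member that changed, and the start of its gene is shown for that reason. The RefSeq window of 300 bases, from 250 before to 50 after the start, lies at chrX:139085187-139085486 (GRCm38.p6, minus strand), and a second annotated start gave a largely overlapping window. Capitals mark TATAAA, the letters of a TATA box, where transcription factor IID binds, a motif chosen after the sequence was looked at. For contrast, the first window of *Thrb* (chr14:17660710-17661009, plus strand) is shown with its nuclear receptor half-site AGGTCA in capitals.
Serpina7: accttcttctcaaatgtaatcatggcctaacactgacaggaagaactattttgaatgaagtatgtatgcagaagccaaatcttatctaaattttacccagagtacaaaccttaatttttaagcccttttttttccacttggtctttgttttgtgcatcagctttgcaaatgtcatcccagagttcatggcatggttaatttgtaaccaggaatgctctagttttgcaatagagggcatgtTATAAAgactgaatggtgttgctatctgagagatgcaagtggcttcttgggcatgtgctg
Thrb: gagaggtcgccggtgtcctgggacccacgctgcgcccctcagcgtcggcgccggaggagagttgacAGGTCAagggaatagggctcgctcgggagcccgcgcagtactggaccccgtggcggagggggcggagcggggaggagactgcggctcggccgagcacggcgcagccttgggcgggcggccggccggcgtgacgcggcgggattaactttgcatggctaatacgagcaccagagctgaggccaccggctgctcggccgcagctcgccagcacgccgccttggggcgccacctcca

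Both strands were searched. TATAAA occurred once in *Serpina7*, beginning at -10 from the gene start of the printed window and at -27 from the other annotated start, and 13.6% of the 32851 windows of this length held it. Neither *Serpina7* window held AGGTCA, which 16.3% of windows held, and so neither held a direct repeat of AGGTCA with a gap of 1 base (0.0396% of windows) or of 4 bases (0.0152%), the spacings bound by PPARα and by thyroid hormone receptors with their partners. Of the members with windows, *Slc16a10*, *Dio1* and *Dio2* held no AGGTCA either, and *Thrb* held 1 in its first window and 0 in its second. TATAAA was also found in *Dio2* (at -30) and in the second *Thrb* window (at -167), and not in *Slc16a10*, *Dio1* or the first *Thrb* window. The GC content of the *Serpina7* window was 38.3%, against 72.7% in the first *Thrb* window and a median of 52.7% over all windows. A match is a stretch of letters and not a measured binding site, and only this short window was read. Only the exact letters were searched, so a half-site that differs in a letter would have been missed.

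The values are log2 signals, so that a difference of 1 is a 2-fold change, and array medians ranged from 6.71 to 6.75. *Ppara* itself was 2.01-fold lower, with no liver going against its label (9.66 to 9.94 in *Ppara*-/- livers, against 10.71 to 10.95 in *Ppara*+/+ livers, adjusted p = 3.6e-08 by limma). Where its probeset lies with respect to the targeted exon is unknown here, so the signal that remained is not read as receptor. On the first principal component over all genes, the genotypes overlapped through *Ppara*-/- mouse 1 (-1.9) and *Ppara*+/+ mouse 6 (3.3). The other *Ppara*-/- livers lay at 9.8 or above and the other *Ppara*+/+ livers at -5.2 or below. The *Serpina7* difference is therefore given without them too. For some other genes only the call or its adjusted p is given without 1 of them, and correlations are not. Of the *Ppara*-/- fetuses 5 were female and 1 male by *Xist* and Y-linked genes, against 3 and 3 in *Ppara*+/+. Defining hepatocyte markers did not separate the genotypes, and 0 of 6 measured markers were called. Their mean level, *Ttr* and *Alb* among them, was 12.88 to 12.92 in *Ppara*-/- and 12.88 to 12.94 in *Ppara*+/+ livers. Most read near the top of the scale, such as *Alb* (13.56 and 13.55) and *Apoa1* (13.51 in both), where the highest signal of any gene was 13.75. Whether the array could resolve a change there was not tested, so like hepatocyte content is not shown. *Hnf4a*, lower on the scale, read 11.38 in *Ppara*-/- and 11.44 in *Ppara*+/+ livers. Among markers of other cells, 2 of 6 macrophage genes were higher, *Csf1r* by 0.23 and *Cd5l* by 0.40 (mean level of the 6 genes 9.09 to 9.29 in *Ppara*-/- and 8.99 to 9.13 in *Ppara*+/+ livers). The hepatoblast gene *Dlk1*, 1 of 4 such genes, was higher by 0.42 (mean level 12.63 to 12.75 in *Ppara*-/- and 12.49 to 12.68 in *Ppara*+/+ livers), and the stellate gene *Des*, 1 of 5, lower at -0.39 (8.76 to 8.97 and 8.75 to 9.12). Their part in the results below was not tested. Markers of thyroid follicle cells, measured to look for thyroid tissue in the dissection, had a mean level of 5.47 to 5.63 in *Ppara*-/- and 5.45 to 5.69 in *Ppara*+/+ livers, and 0 of 5 were called.

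*Serpina7*, whose product has the highest thyroxine affinity of the carriers in human serum, was 3.98-fold lower in *Ppara*-/- livers. The *Ppara*-/- livers of mice 1 to 6 read 8.43, 8.00, 7.95, 8.36, 8.02 and 8.03, and the *Ppara*+/+ livers 10.42, 10.61, 10.15, 10.57, 10.04 and 8.96. The 6 *Ppara*-/- livers all lay below the 6 *Ppara*+/+ livers, with the low *Ppara*+/+ mouse 6 closest to them. The signal averaged 8.13 ± 0.21 in *Ppara*-/- and 10.13 ± 0.61 in *Ppara*+/+ livers (SD, n = 6 each). The difference of -1.99 (SE 0.22, 95% interval -2.47 to -1.52) passed the threshold (limma, adjusted p = 6.7e-05 over all genes) and was the 12th most negative of 19938, a rank known when the gene was chosen. An exact two-sided permutation test over livers gave p = 0.0022, the smallest that 924 assignments allow. In a whole liver, fewer cells of a type and less RNA per cell cannot be told apart.

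The spread of *Serpina7* was uneven between the genotypes. The SD of 0.61 in *Ppara*+/+ livers came mostly from mouse 6, which stood 0.53 above the highest *Ppara*-/- liver. Without it the other 5 *Ppara*+/+ livers averaged 10.36 ± 0.25 and the difference was -2.23 (4.68-fold, adjusted p = 4.7e-08). Measured from the *Ppara*-/- mean (0) to the mean of the other *Ppara*+/+ livers (1), mouse 6 lay at 0.37. *Ppara* in the same liver read 10.71, the lowest of its genotype but next to mouse 5 (10.73). *Ppara*-/- livers lay closer together, between 7.95 and 8.43, and mice 1 and 4 were the higher ones.

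*Serpina7* lies on the X chromosome and the genotypes differed in sex ratio, so the sexes were set apart. The 5 *Ppara*-/- females averaged 8.16 and the *Ppara*-/- male read 8.00, and the 3 *Ppara*+/+ females averaged 9.81 and the 3 males 10.45. *Ppara*+/+ mouse 6 was among those females. Among females alone the difference was -1.65 (3.13-fold, adjusted p = 0.017), and with a sex score as covariate -1.88 (adjusted p = 3.2e-04). The labels number the animals. Within the 6 lowest numbers (2 *Ppara*-/- and 4 *Ppara*+/+ livers) *Serpina7* differed by -2.22 (adjusted p = 2.2e-04), and within the 6 highest (4 and 2 livers, the 2 being *Ppara*+/+ mice 5 and 6) by -1.41 (2.66-fold, adjusted p = 0.0498).

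**Figure D1:**
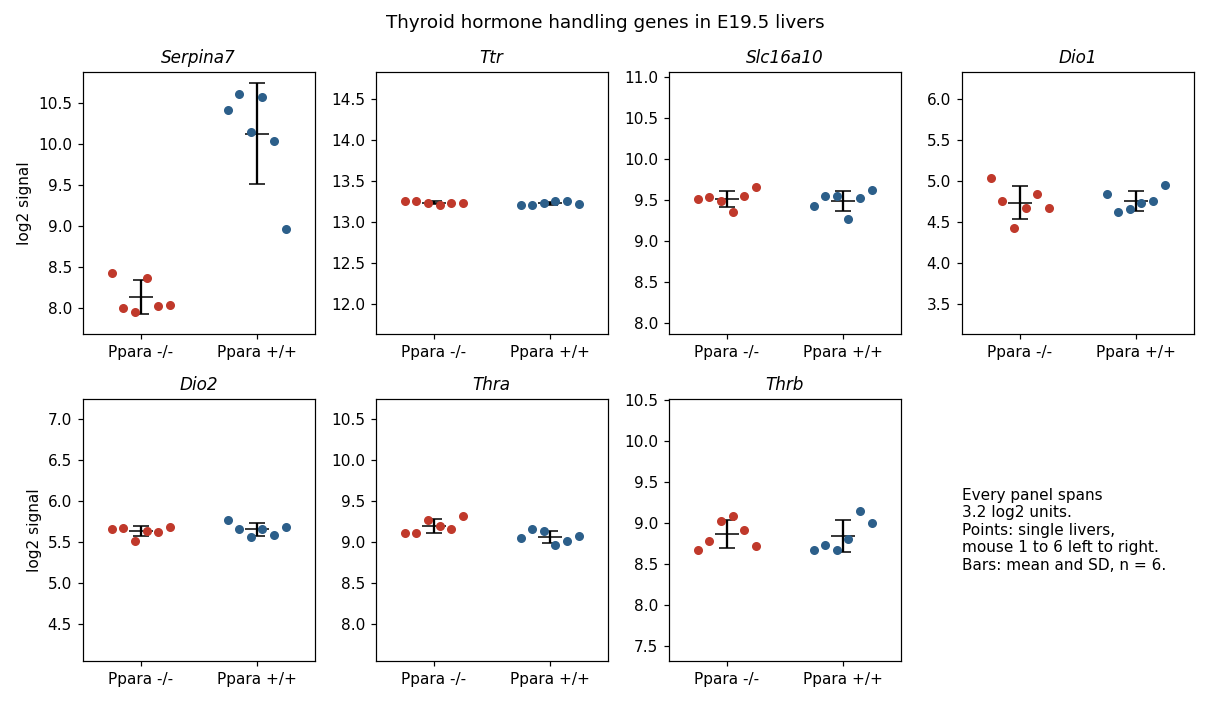
Log2 signal (y axis) of the 7 genes in single livers of each genotype (x axis), with points for mouse 1 to 6 and black bars for the mean ± SD (n = 6). All panels span the same range. *Serpina7* averaged 8.13 in *Ppara*-/- and 10.13 in *Ppara*+/+ livers, whereas the genotypes overlapped in the other 6 genes.

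*Ttr*, encoding transthyretin, the other dedicated thyroxine carrier, stayed within a narrow band. *Ppara*-/- livers read 13.26, 13.25, 13.23, 13.21, 13.23 and 13.23, and *Ppara*+/+ livers 13.21, 13.20, 13.23, 13.25, 13.25 and 13.22. The groups overlapped almost fully, with a difference of 0.01 (95% interval -0.06 to 0.08, adjusted p = 0.92). These readings lie near the top of the scale, where the highest signal of any gene on any array was 13.75. Whether the array could resolve a change there was not tested. *Alb*, encoding albumin, which binds thyroxine weakly but is abundant, gave 13.53 to 13.62 in *Ppara*-/- and 13.50 to 13.64 in *Ppara*+/+ livers.

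*Slc16a10*, encoding the monocarboxylate transporter MCT10 that carries T3 and aromatic amino acids, did not pass the test. Its signal was 9.51, 9.53, 9.49, 9.35, 9.54 and 9.65 in *Ppara*-/- livers, against 9.42, 9.54, 9.55, 9.27, 9.52 and 9.62 in *Ppara*+/+ livers. The lowest liver of both genotypes was mouse 4 and the highest mouse 6, and the difference was 0.03 (95% interval -0.11 to 0.16, adjusted p = 0.88).

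The activating deiodinases were dim in both genotypes. *Dio1*, the type 1 enzyme typical of adult liver and kidney, read 5.04, 4.76, 4.43, 4.68, 4.84 and 4.68 in *Ppara*-/- livers, against 4.84, 4.62, 4.66, 4.74, 4.76 and 4.95 in *Ppara*+/+ livers. *Dio2*, the type 2 enzyme known from brain, pituitary and brown fat, read 5.65, 5.67, 5.51, 5.63, 5.62 and 5.68 in *Ppara*-/- livers, against 5.77, 5.65, 5.56, 5.66, 5.58 and 5.68 in *Ppara*+/+ livers. Both lay below every array median, so a change in a weakly expressed transcript may not have been detectable. The differences were -0.02 for *Dio1* (95% interval -0.21 to 0.16, adjusted p = 0.93) and -0.02 for *Dio2* (-0.12 to 0.08, adjusted p = 0.87). The *Dio1* readings of *Ppara*-/- livers included both the lowest and the highest of all 12. *Dio3*, the inactivating type 3 enzyme, which is imprinted, was as dim (5.23 to 5.51 in *Ppara*-/-, 5.18 to 5.67 in *Ppara*+/+ livers) and differed by 0.05 (adjusted p = 0.80).

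Of the receptors, *Thra* leaned towards *Ppara*-/- livers without passing the test. Its signal was 9.11, 9.11, 9.27, 9.20, 9.16 and 9.32 in *Ppara*-/- livers, against 9.05, 9.16, 9.13, 8.97, 9.01 and 9.07 in *Ppara*+/+ livers. Of the 6 *Ppara*-/- livers 3 lay above every *Ppara*+/+ liver and the rest overlapped. The difference of 0.13 (95% interval 0.02 to 0.24, 1.09-fold) had an adjusted p of 0.14 by limma and an unadjusted exact permutation p of 0.022, and 20.9% of all genes had an unadjusted limma p under 0.05. Within the 6 lowest animal numbers it was 0.03 and within the 6 highest 0.20. The gene gives rise to a receptor and to a splice form that does not bind T3, which 1 probeset cannot separate.

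*Thrb*, encoding the main T3 receptor of adult liver, varied more within the genotypes than between them. *Ppara*-/- livers read 8.68, 8.78, 9.03, 9.09, 8.92 and 8.72, and *Ppara*+/+ livers 8.68, 8.74, 8.68, 8.81, 9.15 and 9.0. The lowest reading was shared by both genotypes and the highest was *Ppara*+/+ mouse 5. The difference was 0.03 (95% interval -0.17 to 0.23, adjusted p = 0.92). The receptors' partners *Rxra*, *Rxrb* and *Rxrg* differed by -0.02, 0.06 and -0.05, with 0 of 3 called.

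Set side by side, 1 of 7 members was lower, 0 were higher and 6 were not called. Over all genes 3.82% were lower, 3.42% higher and 7.24% called in either direction. The genotypes were fully separated, with *Ppara*-/- livers on the lower side, for 1 member, and for 0 on the higher side, against 2.29% and 1.3% of all genes, or 3.59% on either side. The 6 members other than *Serpina7* had a median difference of 0.02, against a median of 0.01 over all genes. Their within-genotype SD ran from 0.02 for *Ttr* to 0.18 for *Thrb*, with 0.46 for *Serpina7* and a median of 0.11 over all genes. The deviations of the livers from their genotype means were also compared between members, as a description over 12 livers that share 2 means. *Serpina7* and *Slc16a10* had r = -0.59, *Dio1* and *Dio2* 0.57, *Dio1* and *Thra* -0.61, and *Ttr* and *Thra* -0.71, the last within the narrow range of *Ttr*.

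The wider pathway was read from 6 lists of 61 genes that included the members, and 56 were measured. Of these 5 were lower, 1 higher and 50 not called, or 10.7% against 7.24% of all genes, with a median difference of -0.02. Apart from *Serpina7*, the called genes were 4 T3-responsive genes and a transporter subunit. None of 10 enzymes and binding proteins of hormone metabolism, 5 receptors and partners or 12 coregulators was called by limma, with 1, 1 and 3 at an unadjusted p under 0.05. The count rose to 11 lower and 2 higher without *Ppara*-/- mouse 1, and to 12 lower and 2 higher without *Ppara*+/+ mouse 6.

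Among 12 measured transporters *Slc3a2* was higher, by 0.20 (adjusted p = 0.024). It encodes the heavy chain that pairs with light chains such as those of *Slc7a5* and *Slc7a8* to carry amino acids and thyroid hormone. *Ppara*-/- livers read 11.63, 11.81, 11.80, 11.89, 11.79 and 11.78, and *Ppara*+/+ livers 11.54, 11.59, 11.59, 11.49, 11.62 and 11.68. Only *Ppara*-/- mouse 1 lay within the *Ppara*+/+ range. The call was lost without any one of *Ppara*-/- mice 2, 4, 5 and 6 and *Ppara*+/+ mice 1, 2 and 4 (adjusted p = 0.0508 to 0.06) and with the sex score as covariate (adjusted p = 0.066). *Slc7a5* differed by -0.05 (adjusted p = 0.76) and *Slc7a8* by 0.15 (adjusted p = 0.23). *Slco1b2*, an organic anion transporter of the hepatocyte sinusoidal membrane, differed by -0.44 and was not called (adjusted p = 0.083). It read 10.50, 9.82, 10.23, 9.56, 9.78 and 10.08 in *Ppara*-/- livers, against 10.59, 10.64, 10.35, 10.64, 10.33 and 10.05 in *Ppara*+/+ livers. Here too *Ppara*-/- mouse 1 lay among the *Ppara*+/+ livers and *Ppara*+/+ mouse 6 among the *Ppara*-/- livers. Without either one *Slco1b2* was called (adjusted p = 0.013 without *Ppara*-/- mouse 1, 0.034 without *Ppara*+/+ mouse 6). Either omission also brings animal number and genotype closer together, so a difference by animal number cannot be told apart. *Slc17a4*, shown in human cells to transport thyroid hormone, differed by -0.33 (adjusted p = 0.065). It passed when *Ppara*-/- mouse 3 (0.042) or *Ppara*+/+ mouse 6 (0.0097) was left out.

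Of 14 measured genes known to respond to T3 in liver, 4 were lower and 0 higher, or 28.6% called against 7.24% of all genes, with a median difference of -0.32 against 0.01. *Cpt1a*, which admits long-chain fatty acids to mitochondria, had 10.52, 9.44, 9.76, 9.20, 9.15 and 9.06 in *Ppara*-/- livers, against 11.45, 11.62, 11.48, 11.45, 11.40 and 11.02 in *Ppara*+/+ livers. The groups did not overlap, and the difference was -1.88 (adjusted p = 5.0e-05). *Klf9*, a transcription factor induced by both T3 and glucocorticoids, read 9.28, 8.96, 9.10, 9.08, 8.90 and 8.84 in *Ppara*-/- livers, against 9.48, 9.50, 9.57, 9.55, 9.40 and 9.25 in *Ppara*+/+ livers. Only *Ppara*-/- mouse 1 and *Ppara*+/+ mouse 6 overlapped, and the difference was -0.43 (adjusted p = 0.0029). *Gpd2*, the mitochondrial glycerol-3-phosphate dehydrogenase, differed by -0.44 (adjusted p = 0.01) and the hormone gene *Fgf21* by -1.06 (adjusted p = 0.007). The *Ppara*-/- readings of *Fgf21* (5.47 to 5.81) lay below every array median. *Ppara*+/+ mice 5 and 6 read 6.14 and 5.81 for *Fgf21*, against 6.89 to 7.18 in *Ppara*+/+ mice 1 to 4. *Cpt1a* and *Fgf21* are also known PPARα targets, so the list is not one of T3 action alone. In females alone *Cpt1a* was called, and *Klf9*, *Gpd2* and *Fgf21* were not (adjusted p = 0.22, 0.24 and 0.29). The other 10 genes did not pass with all 12 livers, and some did under other settings. *Thrsp*, a classical T3-induced gene of lipogenesis, differed by 0.50 in the other direction (adjusted p = 0.092). *Me1*, the malic enzyme, differed by -0.36 (adjusted p = 0.057), *Hr* by -0.10 (adjusted p = 0.33) and *Pck1* by -1.38 (adjusted p = 0.061). *Pck1*, the gluconeogenic enzyme, read 10.68, 9.36, 9.68, 8.76, 8.81 and 8.56 in *Ppara*-/- livers, against 11.28, 11.43, 11.03, 11.33, 9.87 and 9.18 in *Ppara*+/+ livers. It passed once *Ppara*-/- mouse 1 or *Ppara*+/+ mouse 6 was left out (adjusted p = 0.011 each). Leaving out either liver brings animal number and genotype closer together, so these calls cannot be told apart from a difference by animal number. *Thrsp* passed without *Ppara*+/+ mouse 3 (0.038), and *Me1* without *Ppara*-/- mouse 3 (0.01) or *Ppara*+/+ mouse 6 (0.043).

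**Figure D2:**
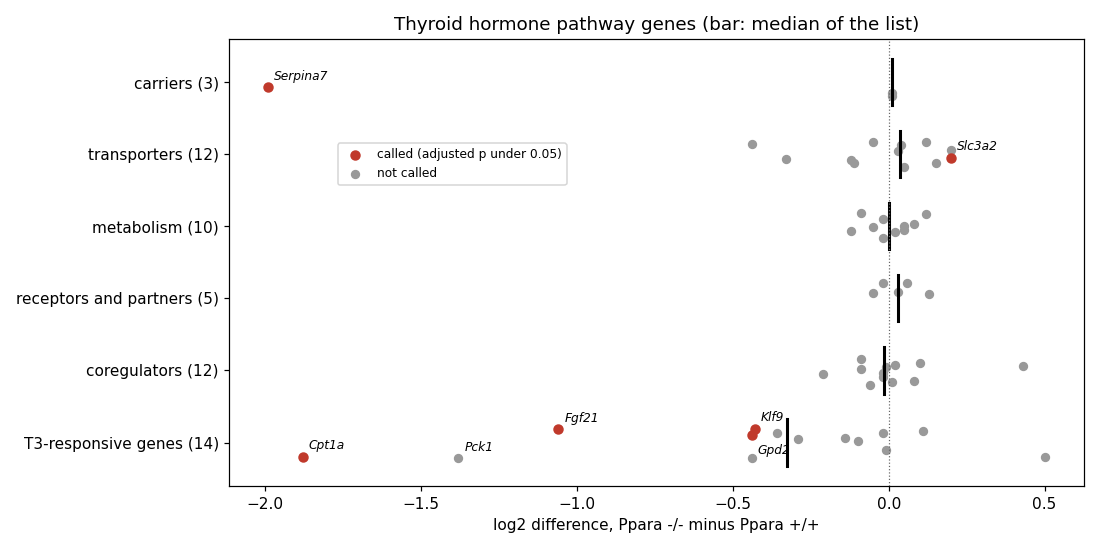
Each point is a measured gene placed by its log2 difference between *Ppara*-/- and *Ppara*+/+ livers (x axis, positive where higher in *Ppara*-/-) in 6 thyroid hormone lists (y axis, number of genes in parentheses), with red points for called genes, grey points for others and a bar for each list's median. *Serpina7* at -1.99 stands apart from *Ttr* and *Alb*, both at 0.01, and 4 of 14 T3-responsive genes are called.

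*Serpina7* was next set beside the other serpins of clade A, several of which are secreted by liver. *Serpina12*, *Serpina16*, *Serpina1f*, *Serpina3a*, *Serpina3b* and *Serpina9* read below every array median in both genotypes, so a change in them may not have been detectable. Only clade members with a probeset of their own are counted, and others, such as *Serpina1a*, are absent. Of 15 measured genes 1 was lower, 2 higher and 12 not called, or 20.0% against 7.24% of all genes, with a median difference of 0.02. The same 3 genes had no overlap between the genotypes, against 3.59% of all genes. *Serpina5*, encoding the protein C inhibitor, moved in the opposite direction. It read 8.47, 8.73, 8.91, 8.65, 8.72 and 8.78 in *Ppara*-/- livers, against 7.44, 7.31, 7.71, 7.07, 8.24 and 8.32 in *Ppara*+/+ livers. The groups did not overlap (difference 1.03, adjusted p = 0.0035), and in females alone it was not called (adjusted p = 0.14). *Serpina10*, encoding the protein Z-dependent protease inhibitor, was higher by 0.16 (adjusted p = 0.021), also without overlap. Its call was lost without *Ppara*-/- mouse 5 (adjusted p = 0.059). *Serpina6*, encoding corticosteroid-binding globulin, is the closest counterpart in function, since it too carries a hormone. It read 9.11, 11.25, 10.66, 11.31, 11.56 and 11.33 in *Ppara*-/- livers, against 8.80, 8.42, 9.09, 8.39, 10.43 and 11.48 in *Ppara*+/+ livers. *Ppara*-/- mouse 1 lay with the lower *Ppara*+/+ livers and *Ppara*+/+ mouse 6 with the *Ppara*-/- livers, and the difference of 1.43 did not pass (SE 0.53, adjusted p = 0.12). Without *Ppara*-/- mouse 1 it was called at an adjusted p of 0.025, and without *Ppara*+/+ mouse 6 at 0.018. Leaving out either liver brings number and genotype closer together, so these calls cannot be told apart from a difference by animal number. With all 12 livers it was called under array weights (adjusted p = 0.015) and with the animal number as a linear covariate (0.0059). A straight-line term does not describe a step between numbers.

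**Figure D3:**
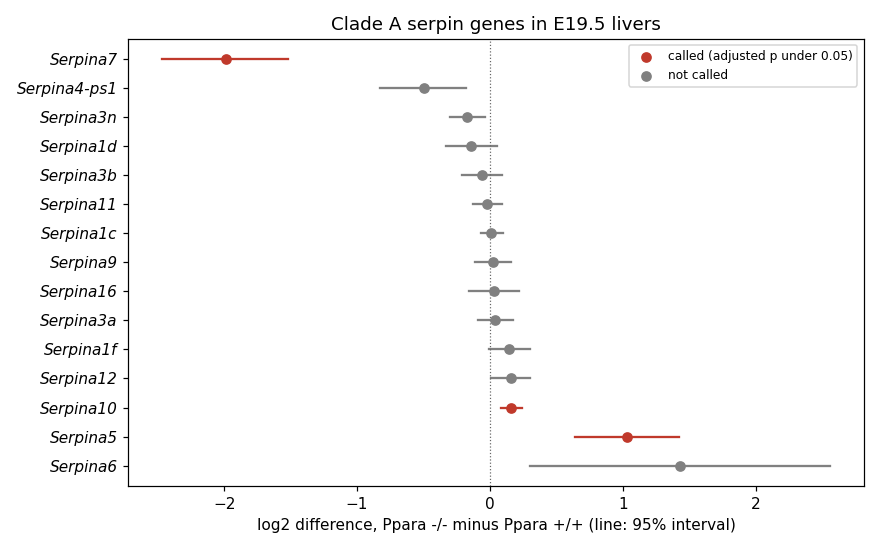
The 15 measured clade A serpin genes (y axis) by log2 difference of *Ppara*-/- from *Ppara*+/+ livers (x axis), with lines for 95% intervals and red where called. *Serpina7* lies at -1.99, *Serpina5* at 1.03 and *Serpina6*, not called, at 1.43.

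Other plasma carriers made by the liver were mostly not called. Of 11 measured carriers of hormones, growth factors, vitamins or metals 1 was lower, 0 higher and 10 not called, or 9.09% against 7.24% of all genes. Several read near the top of the scale, such as *Ahsg* (13.49 in both genotypes) and *Afp* (13.31 in *Ppara*-/- and 13.26 in *Ppara*+/+ livers). Whether a change could be resolved there was not tested. The one lower was *Igfbp2*, encoding a binding protein for insulin-like growth factors, at -1.30 (adjusted p = 0.0036, and 0.22 in females alone). It read 10.95, 10.17, 10.42, 9.87, 9.54 and 9.76 in *Ppara*-/- livers, against 11.67, 11.74, 11.47, 11.81, 11.11 and 10.69 in *Ppara*+/+ livers. The genotypes overlapped through *Ppara*-/- mouse 1 and *Ppara*+/+ mouse 6 alone. *Rbp4*, the retinol carrier that circulates bound to transthyretin, differed by -0.08 (adjusted p = 0.22) at 13.26 to 13.37 in *Ppara*-/- and 13.34 to 13.42 in *Ppara*+/+ livers.

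The genes with the pattern most like *Serpina7* were sought by Pearson r, given as a description because the livers share 2 genotypes. Over the 12 livers the 6 closest named genes were *Adh4* (r = 0.99), *Ephx2* (0.98), *Ehhadh* (0.98), *Cyp2a22* (0.97), *Slc16a5* (0.97) and *Abcd2* (0.97), all 6 lower in *Ppara*-/- livers. *Adh4*, an alcohol dehydrogenase that also oxidizes retinol, read 5.68, 5.48, 5.72, 5.91, 5.65 and 5.54 in *Ppara*-/- livers, against 7.12, 7.40, 7.06, 7.11, 7.05 and 6.22 in *Ppara*+/+ livers. It shared with *Serpina7* the low *Ppara*+/+ mouse 6. *Ehhadh* and *Abcd2* encode an enzyme and a transporter of peroxisomal fatty acid oxidation, and *Ephx2* an epoxide hydrolase. *Ppara* itself had r = 0.95 with *Serpina7* over the 12 livers and 0.57 over the deviations from the genotype means.

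With genotype taken out, *Adh4* and *Cyp2a22* stayed among the 6 closest named genes and the other 4 differed. Over the 12 deviations from the genotype means the closest named genes were *Sult1a1* (0.94), *Cyp2a22* (0.93), *Elk3* (0.93), *Adh4* (0.92), *Adam23* (0.92) and *Hsd11b1* (0.91). Their r with *Serpina7* was 0.38 to 0.87 within the 6 *Ppara*-/- livers and 0.92 to 0.99 within the 6 *Ppara*+/+ livers. *Ppara*+/+ mouse 6 was the lowest liver of its genotype for *Serpina7* and for each of these genes, such as *Sult1a1* (10.03, against 10.33 to 10.43). No r was computed without it, so how far these values rest on that liver is not known. *Sult1a1* encodes a phenol sulfotransferase and *Hsd11b1* the enzyme that regenerates active glucocorticoid, and neither was called between genotypes (adjusted p = 0.48 and 0.28). *Hsd11b1* read 9.84 in *Ppara*+/+ mouse 6, against 10.24 to 10.53 in the other *Ppara*+/+ livers and 10.34 to 10.62 in *Ppara*-/- livers. *Serpina6* ran the other way, with r = -0.83 over the deviations, -0.94 among *Ppara*+/+ and -0.59 among *Ppara*-/- livers. *Ppara*-/- mouse 1 had the highest *Serpina7* and the lowest *Serpina6* of its genotype, and *Ppara*+/+ mouse 6 the lowest *Serpina7* and the highest *Serpina6*.

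**Figure D4:**
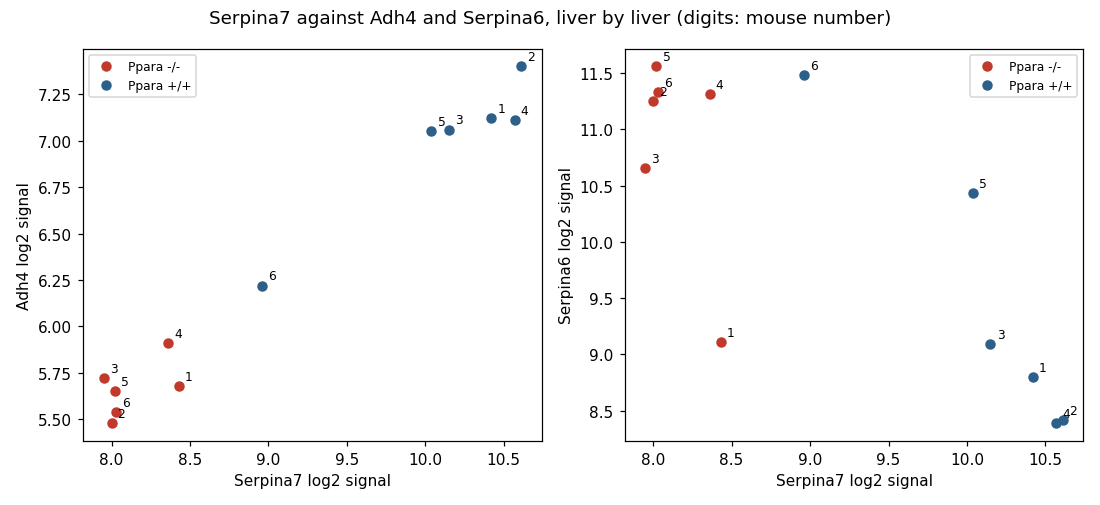
Log2 signal of *Serpina7* (x axes) against *Adh4* (left, y axis) and *Serpina6* (right, y axis) in the 12 livers, with colours for genotype and digits for the mouse number. *Ppara*+/+ mouse 6 (*Serpina7* 8.96) lies between the genotypes for *Adh4* (6.22) and among the *Ppara*-/- livers for *Serpina6* (11.48).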

How the data were processed

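The deposited values are log2 signals that the authors computed with RMA (background correction, normalization between arrays and 1 value per probeset) from Affymetrix MoGene 1.0 ST arrays. RMA's version and a genome build were not given in the sources used here. Of 35556 probesets, 21789 had exactly 1 gene symbol in the platform's probe table, 1621 several and 12146 none. Of the first, 21698 matched a gene ID of the GRCm38.p6 gene table. The probeset with the highest mean stood for each gene, which gave 19938 genes, dim ones included. Livers were grouped by the genotype in their titles, and differences are *Ppara*-/- minus *Ppara*+/+. limma 3.58.1 (R 4.3.3; lmFit, then eBayes) tested them two-sided without covariates, with Benjamini-Hochberg adjustment over the whole table (threshold 0.05). The procedure was also run on simulated data with independent noise for each gene and liver. Shared litters and splits by animal number were not simulated. Exact permutation tests enumerated all 924 assignments. Array number limits the precision, and arrays carry no read depth.

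The members, lists and markers were chosen with earlier results of these data known. Named were all members, *Ppara*, *Dio3* and *Serpina6*, up to 4 called genes per list and the 6 genes most like *Serpina7* by either r, leaving out unnamed transcripts. Other genes were named after their values were seen. Of the 61 pathway genes, 5 are not reported here. Promoter windows were matched by symbol for 5 of 7 members. Alternatives were renewed quantile normalization, median shifts, a filter at the 50th percentile, mean probesets, intensity trend, array weights, the mouse number, sex score or animal number as a term, and leaving out each liver. Fits within the 6 lowest and 6 highest animal numbers, in females alone, and without *Ppara*+/+ mouse 6 and *Ppara*-/- mouse 1 together were added after seeing the data.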

Additional observations from a re-analysis of the deposited data

Results flagged for a closer look

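In 6 of 64 groups of 6 livers, the lowest liver stood far from the rest by Dixon's test, where chance gives about 1 in 20 for independent groups. These groups share 12 livers and include genes named after their values were seen, so that rate is no yardstick here. The genes most like *Serpina7* were not among those tested, though *Adh4*, *Cyp2a22* and *Sult1a1* too were lowest of their genotype in *Ppara*+/+ mouse 6. *Serpina7* read 8.96 in *Ppara*+/+ mouse 6, against 10.04 to 10.61 in the other *Ppara*+/+ livers. *Cpt1a* read 11.02 in the same liver, against 11.40 to 11.62. *Serpina6* read 9.11 in *Ppara*-/- mouse 1, against 10.66 to 11.56 in the other *Ppara*-/- livers. *Ppargc1a*, a coactivator of PPARα and of thyroid hormone receptors, read 9.30 in *Ppara*-/- mouse 1, against 9.99 to 10.18. *Ppara*+/+ mice 1 to 4 read 9.31 to 9.37, and mice 5 and 6 read 9.83 and 9.89. Both *Serpina6* and *Ppargc1a* thus split by animal number, with *Ppara*-/- mouse 1 on the side of the *Ppara*+/+ livers numbered near it. *Ppara*+/+ mice 5 and 6 also stood apart from mice 1 to 4 for *Pck1* (9.87 and 9.18, against 11.03 to 11.43). The same held for *Fgf21* (6.14 and 5.81, against 6.89 to 7.18) and *Serpina5* (8.24 and 8.32, against 7.07 to 7.71). It did not hold for *Thra* (9.01 and 9.07, against 8.97 to 9.16). Why was not tested. *Dio2* read 5.51 in *Ppara*-/- mouse 3, against 5.62 to 5.68, and *Sephs2*, which supplies selenium for deiodinase synthesis, read 11.39 in *Ppara*-/- mouse 6, against 11.50 to 11.56.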

How the results depend on the processing

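*Serpina7* stayed lower and called in all 25 other limma fits, with differences of -2.29 (without *Ppara*+/+ mouse 6 and *Ppara*-/- mouse 1 together) to -1.41 and adjusted p of 4.7e-08 to 0.0498, both highest within the 6 highest animal numbers. With 1 liver left out it ranged from -2.23 to -1.90. *Ttr*, *Slc16a10*, *Dio1*, *Dio2*, *Thra* and *Thrb* were called in none of theirs, and the lowest adjusted p was 0.065, for *Thra* with dim genes removed. *Dio1* and *Dio2* fell below that filter and had no value there. No member had another single-symbol probeset to try. The members called stayed at 1 lower and 0 higher in each of the 22 other fits that counted them (members were not counted for females alone or within animal numbers), and the exact test gave p under 0.05 for 2 members with any liver left out. Pathway genes called lower (5) were 10 with the animal number, 14 with array weights, 8 with trend and robust settings, 9 above the 50th percentile of signal, and 5 to 12 with 1 liver left out. Those called higher (1) were 3 with the animal number, 2 with array weights, 0 with the sex score and 0 to 2 with 1 liver left out. Over all genes, 1457 were lower and 1286 higher with array weights, 449 and 401 with the sex score, and 447 to 1147 and 384 to 1374 with 1 liver left out, against 761 and 682. *Cpt1a*, *Klf9*, *Gpd2*, *Fgf21*, *Serpina5* and *Igfbp2* were called with any 1 liver left out, but in females alone only *Cpt1a* of these was. *Klf9* and *Gpd2* were not called within the 6 lowest (adjusted p of 0.12 and 0.11) or the 6 highest animal numbers (0.17 and 0.36), nor *Fgf21* (0.3) and *Igfbp2* (0.09) within the 6 highest. *Serpina10* lost its call with the sex score (0.0536) and with the mouse number as a block (0.0502). The causes of these moves were not tested.

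Livers of the same mouse number correlated in their deviations from the genotype means by 0.0194 to 0.39, and 5 of 12 correlated best with their own number, so the numbers were not taken as pairs. With the mouse number as a replicate block *Serpina7* differed by -1.99 (adjusted p = 2.6e-04), and 9 pathway genes were lower and 2 higher. *Slc17a4* (0.0078), *Pck1* (0.0095), *Me1* (0.017), *Thrsp* (0.0452) and *Serpina6* (0.0487), not called without it, were called with it. With array weights *Pck1* (0.007), *Slco1b2* (0.0096), *Slc17a4* (0.013) and *Me1* (0.017) were called. With the animal number as a linear term *Pck1* (0.0006), *Slc17a4* (0.021), *Thrsp* (0.023) and *Slco1b2* (0.039) were called. *Me1* was also called with quantile normalization (0.032), equal medians (0.0482), dim genes removed (0.031) and trend and robust settings (0.0461), and *Pck1* (0.036) and *Slco1b2* (0.0468) with dim genes removed.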
